A study of Mus musculus with 4 samples.

Results

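Cells that carried RNA of the pigment genes were picked out of single-cell libraries of mouse embryonic heads at day E10.5. A kept cell, one with at least 500 detected genes and under 10% of its unique molecular identifiers (UMIs, each standing for 1 captured RNA molecule) from mitochondrial genes, was a member if at least 2 of the 5 genes Pmel, Dct, Tyrp1, Tyr and Mlana had at least 1 UMI in it. This held for 113 of 24259 kept cells. Of these, 110 had no UMI of Sox10, a transcription factor of neural crest cells and of the pigment cell precursors that come from them, and 3 had at least 1. The groups were Apcdd1+/- (heterozygous for Apcdd1, which encodes a membrane glycoprotein that inhibits Wnt signalling) and wild type (WT), each with 2 libraries, and the labels name no treatment. They name neither the strain, nor how the allele was made, nor how many embryos entered a library, so p-values measure only the spread between these libraries, which may be technical.

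Pigment in the embryo comes from 2 sources that share one set of enzymes. The retinal pigment epithelium forms from the outer layer of the optic cup, a part of the brain wall, under the transcription factors MITF and OTX2, while the inner layer becomes the neural retina. Melanoblasts leave the neural crest, travel under the skin, and depend on SOX10, MITF and the receptor KIT. At this stage of mouse development the epithelium is beginning to make pigment, and melanoblasts are few.

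Kept cells numbered 9501 and 5544 in the Apcdd1+/- libraries and 6258 and 2956 in the WT libraries, with a median of 9118 and 8935 UMIs per cell against 11506 and 17134. Apcdd1 itself did not separate the labelled genotypes: among all kept cells outside the members it had 77.8 and 49.6 CPM (a gene's UMIs over all UMIs of the cells summed, scaled in the usual way to counts per fixed library total) in the libraries labelled Apcdd1+/-, against 63.8 and 61.0 CPM in those labelled WT. The Apcdd1+/- values lay on either side of the WT values, so each direction by genotype below is one between labels, and libraries are named by their labels throughout. Between 6 and 25 bead barcodes were shared by any pair of libraries, a partial count for the 3 pairs with Apcdd1+/- 1, where the barcode list used covers 3994 cells.

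Members made up 0.421% (Clopper-Pearson 95% interval 0.301 to 0.573) and 0.343% (0.206 to 0.535) of kept cells in the Apcdd1+/- libraries, 40 and 19 cells, against 0.639% (0.457 to 0.869) and 0.474% (0.259 to 0.793) in the WT libraries, 40 and 14 cells. Both Apcdd1+/- shares lay below both WT shares, an order also found for the neural retina cells described below. Apcdd1+/- minus WT, the mean shares gave -0.175 percentage points, with p = 0.33 in an exact two-sided permutation test, which cannot go lower with 2 libraries in each group. The WT libraries were the deeper ones, and with each cell thinned to 3000 UMIs the shares were 0.243% and 0.260% against 0.350% and 0.279%. The intervals cover counting error only.

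The rule was met almost entirely through 2 of its genes. Pmel encodes the protein that builds the fibrils of the pigment granule, and Dct an enzyme of melanin synthesis. Of the 113 members, 86 had Pmel and Dct alone, 13 had Tyrp1 besides, 8 had Tyr besides, 3 had all 4, and 3 had another pair. Tyrosinase, the product of Tyr and the rate-limiting enzyme of the pathway, was found in 12 members, and Tyrp1, a related enzyme, in 18. Mlana, a marker of later melanocytes, was found in 0 of 113 members, which allows a share of cells with a UMI of up to 2.65%, and in 23 cells outside them. These genes chose the cells, so the values describe the choice and were not tested.

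Pmel had between 1 and 30 UMIs per member in Apcdd1+/- 1 (median 7.5) and 0 to 32 in Apcdd1+/- 2 (median 5), against 1 to 63 in WT 1 (median 9) and 0 to 48 in WT 2 (median 4.5). Dct had 0 to 12 (median 2.5) and 1 to 12 (median 5) in the Apcdd1+/- libraries, against 1 to 29 (median 4) and 1 to 23 (median 3.5) in the WT libraries. The ranges overlapped in every pair of libraries. Members held 79.2% of all Pmel UMIs and 66.7% of all Dct UMIs, but 34.9% of those of Tyr, whose other UMIs were spread over 47 cells.

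**Figure D1:**
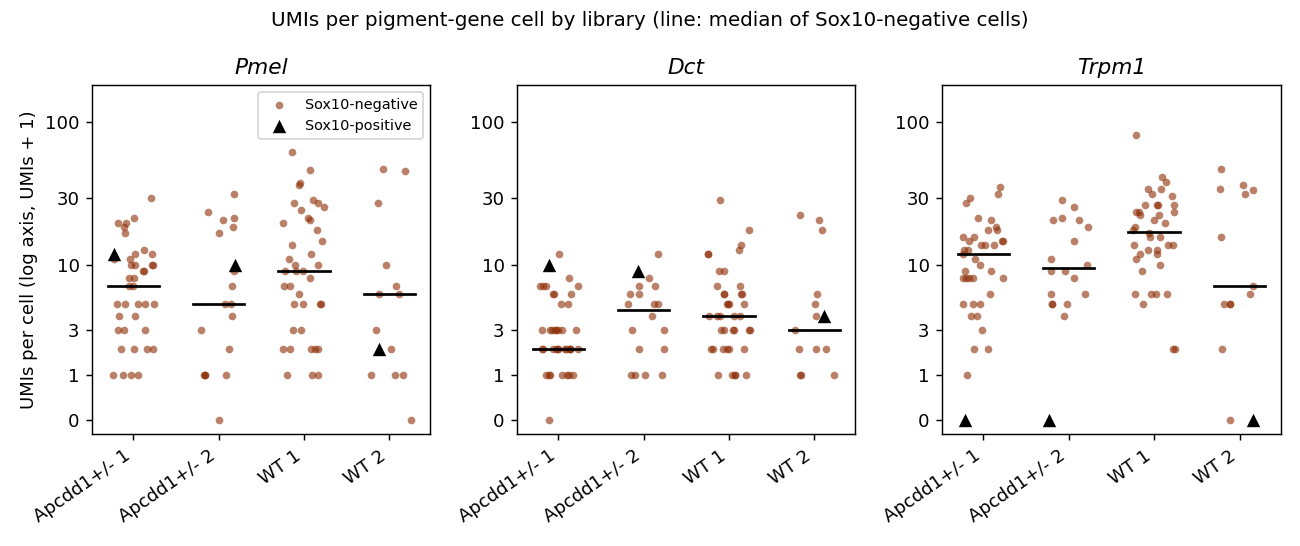
UMIs per member cell of Pmel, Dct and Trpm1 (log axes of UMIs + 1) in each library; dots are Sox10-negative cells, triangles the 3 Sox10-positive cells and lines the medians of the Sox10-negative cells. The Sox10-positive cells lie within the range of the others for Pmel and Dct and at 0 for Trpm1.

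The tyrosinase family genes share a stretch of promoter that is known as a binding site of MITF, so their promoters are shown. The windows run from 250 bases before to 50 bases after the start of the gene (RefSeq, GRCm38.p6), at chr7:87493463-87493762 on the minus strand for Tyr, chr4:80833963-80834262 on the plus strand for Tyrp1 and chr14:118052197-118052496 on the minus strand for Dct. Capitals mark the longest run of letters that all 3 windows hold.
Tyr promoter: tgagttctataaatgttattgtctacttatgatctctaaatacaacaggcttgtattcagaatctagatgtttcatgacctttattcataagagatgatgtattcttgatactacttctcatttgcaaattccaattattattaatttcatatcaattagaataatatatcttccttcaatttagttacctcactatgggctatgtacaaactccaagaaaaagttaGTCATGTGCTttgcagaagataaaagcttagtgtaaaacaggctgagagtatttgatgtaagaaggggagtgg
Tyrp1 promoter: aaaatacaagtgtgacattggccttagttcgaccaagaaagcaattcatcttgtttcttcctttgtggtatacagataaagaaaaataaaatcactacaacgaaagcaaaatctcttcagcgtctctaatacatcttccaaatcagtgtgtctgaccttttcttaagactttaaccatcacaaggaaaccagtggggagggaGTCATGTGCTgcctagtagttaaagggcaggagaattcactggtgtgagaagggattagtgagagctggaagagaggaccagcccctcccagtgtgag
Dct promoter: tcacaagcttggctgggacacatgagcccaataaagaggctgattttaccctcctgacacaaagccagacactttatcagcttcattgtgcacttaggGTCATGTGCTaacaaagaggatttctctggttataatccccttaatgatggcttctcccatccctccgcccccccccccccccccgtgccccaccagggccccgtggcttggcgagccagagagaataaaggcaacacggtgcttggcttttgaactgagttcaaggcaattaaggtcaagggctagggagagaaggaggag
That run, GTCATGTGCT, has 10 letters and starts at position -23 in Tyr, -48 in Tyrp1 and -152 in Dct, counted from the gene start. On either strand it was found in 61 of 32851 promoter windows of the mouse genome (0.186%), and with an A before it, as in Tyr and Tyrp1, in 7. The core CATGTG, which the run contains, was found in 14.2% of windows on either strand. Of the melanosome and pigment genes outside the rule, 25 of 30 had a window, and 7 of these held the core, Trpm1, Oca2 and Tspan10 among them. A match of letters is a description and was not tested for binding. The table had no window for Pmel or Mlana.

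Each rule gene was also read in cells that the other 4 had chosen. Of 26 cells with at least 2 of the other 4, 24 had Pmel, at 1163 CPM against 3.94 CPM in the other cells. Of 25 such cells, 24 had Dct, at 552 CPM against 2.22 CPM. Tyrp1 was found in 16 of 111 such cells and Tyr in 11 of 112, at 12.3 and 19.0 CPM, and Mlana in 0 of 113. At the edge of the rule, 6 members had 2 rule genes at 1 UMI each, and 35 cells with a single rule gene at 3 UMIs or more were just outside. Trpm1 was found in 5 of those 6 and in 22 of those 35, at 221 and 376 CPM, against 1.997 CPM in cells with no rule gene.

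The label holds for the 110 Sox10-negative members as cells of the optic cup. Of the 6 genes Mitf, Otx2, Trpm1, Pax6, Lhx2 and Six6, 43 cells had all and 43 had 5, and no cell had fewer than 2. Mitf and Trpm1 were also listed as melanoblast genes and accompany the rule genes, so these 2 do not tell optic cup from crest. Otx2, which with MITF sets the pigment epithelium apart, was found in 106 of 110, Lhx2, needed for the optic vesicle to form, in 104, and Pax6, the eye field regulator, in 98. In 132 cells in which haemoglobin made up at least 10% of UMIs, taken as cells that should lack these genes, Otx2 was found in 10, Lhx2 in 4 and Pax6 in 11, with a median depth of 19612 UMIs against 11777 in the members. Over all 24146 kept cells outside the members, Otx2 was found in 46.4%, Lhx2 in 27.8% and Pax6 in 33.9%, so none of these is particular to the members. Mitf, Trpm1 and Six6 were found in 1.84%, 1.64% and 4.14% of those cells. Of 9 neural crest genes, none was found in 93 members and 1 in the other 17. No doublet caller was run.

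The label's melanoblasts are 3 cells, 1 each in Apcdd1+/- 1, Apcdd1+/- 2 and WT 2 and 0 in WT 1. In that order they had 12, 10 and 2 UMIs of Pmel, 10, 9 and 4 of Dct, and 2, 4 and 1 of Sox10. Kit, the receptor that melanoblasts need to survive and migrate, had 1, 1 and 0 UMIs, and Mitf 0, 2 and 1. Crest genes stood beside them: Pax3 had 3, 4 and 0 UMIs and Tfap2b 5, 3 and 0. Otx2, Pax6, Lhx2, Six6, Six3, Rax, Trpm1 and Aldh1a3 had 0 UMIs in all 3, at depths of 11902, 12316 and 3777 UMIs. Among 217 other Sox10-positive cells Pmel was found in 2 and Dct in 5, Mitf in 8 and Kit in 32. No library had the 5 such cells set for a test, so none was made, and all results below are of the Sox10-negative members.

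Set against all other kept cells of the same libraries, the 110 cells showed a broad pigment and eye programme. The cells were chosen on RNA from the same barcodes, so genes that accompany the rule genes differ by the choice, and the edgeR calls here say only that a difference recurred over the 4 libraries. The quasi-likelihood test, on counts summed per library with the library as a block, called 910 of 14245 genes higher (6.39%) and 1324 lower (9.29%) at a Benjamini-Hochberg adjusted p under 0.05, and the median log2 difference over all genes tested was -0.12. Without WT replicate 1 the higher count was 551, and without Apcdd1+/- replicate 1 the lower count was 861. DESeq2 called 846 higher and 699 lower, so the share of calls that were higher was 54.8%, against 40.7% by edgeR.

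Among the melanosome genes outside the rule, 14 of 30 were called higher, against 6.39% of all genes, and 0 lower, with a median log2 difference of 0.40. Trpm1, a cation channel gene under MITF control in melanocytes, had 1066 and 1203 CPM in the Apcdd1+/- libraries and 1414 and 957 CPM in the WT libraries, against 3.12 ± 0.28 CPM in the other cells (SD, n = 4). It was found in 109 of 110 cells, and in 1 of the 132 haemoglobin-rich cells. The log2 difference was 8.45 (SE 0.11). Gpnmb, a melanosome glycoprotein related to PMEL, had 57.9 and 114.6 CPM in the Apcdd1+/- libraries and 96.7 and 66.0 CPM in the WT libraries, against 0.767 ± 0.167 CPM in the other cells, a log2 difference of 6.66 (SE 0.43). Tspan10 had 17.2 and 15.6 CPM in the Apcdd1+/- libraries and 19.3 and 20.6 CPM in the WT libraries, and 2 of the 4 libraries had no UMI of it in any other cell. Rab38 and Rab27a, which traffic pigment enzymes and granules, Oca2 and Slc45a2, transporters whose loss causes albinism, and Sytl2, Slc7a11, Mlph and Gpr143 were called higher as well. So were Cd63 and 2 genes of the complexes that many cell types use to build such granules, Dtnbp1 and Hps4. Their relatives Bloc1s1, Bloc1s3, Bloc1s5 and Bloc1s6 had log2 differences between 0.03 and 0.23, and Hps1, Hps3, Hps5 and Hps6 between -0.46 and -0.12, and none of these 8 passed the test. Slc24a5 of the same list was level, at 26.35 ± 14.64 CPM in the members and 27.74 ± 6.68 CPM in the other cells (log2 difference -0.07, edgeR adjusted p = 0.92). Rab32, Myo5a and Mreg did not pass either. Of the genes called higher, Tspan10, Slc45a2, Gpr143 and Mlph had 27, 13, 9 and 6 UMIs in all members. In the other cells they had means of 0.00977 to 0.291 CPM. They could be tested only because the members had more, so a call of higher was favoured by the filter.

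Mitf had 113.7 and 192.8 CPM in the Apcdd1+/- libraries and 158.2 and 144.4 CPM in the WT libraries, against 2.11 ± 0.33 CPM in the other cells, a log2 difference of 6.06 (SE 0.34). It was found in 75 of 110 cells. Of the 12 transcription factor genes listed for the pigment epithelium, 8 were called higher, against 6.39% of all genes, and 1 lower. Among the 8 were Otx2, higher by 1.97 (SE 0.09), and Tfec, a relative of Mitf, higher by 4.18 on the log2 scale. Foxc1, of the mesenchyme around the eye, had 0 UMIs in the 110 cells and was at least 5.49-fold lower, taking 3 UMIs over the summed cells as the floor.

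The other genes with the largest log2 differences, by the rule for named genes, were Slc38a8, an amino acid transporter gene in which mutations cause foveal hypoplasia in humans, at 8.15 (SE 0.16), Mfrp, a membrane frizzled-related protein of the pigment epithelium, at 7.52 (SE 0.48), Rlbp1, the retinaldehyde-binding protein of the visual cycle, at 6.92 (SE 0.46), Cplx3 at 6.23 (SE 0.37), Inmt at 6.06 (SE 0.28), the bicarbonate transporter gene Slc4a5 at 5.57 (SE 0.40) and Clec18a at 5.43 (SE 0.43). Slc38a8 had 469.7 and 505 CPM in the Apcdd1+/- libraries and 501 and 318 CPM in the WT libraries, against 1.47 ± 0.30 CPM in the other cells.

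Genes of the finished epithelium were split. Of 24 visual cycle and transport genes, 9 were called higher and 3 lower, against 6.39% and 9.29% of all genes, 7 did not pass and 5 were not tested. Besides Rlbp1, the retinol uptake receptor gene Stra6 and the retinol dehydrogenase gene Rdh10 were higher by 3.55 (SE 0.40) and 2.17 on the log2 scale. Rpe65, Lrat and Rgr, the enzymes and opsin that regenerate retinal in the mature epithelium, and the retinol carrier gene Ttr had 0 UMIs in the 110 cells. For 1469355 UMIs in all, 3 UMIs correspond to 2.04 CPM, so levels under that were not detectable at this depth.

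**Figure D2:**
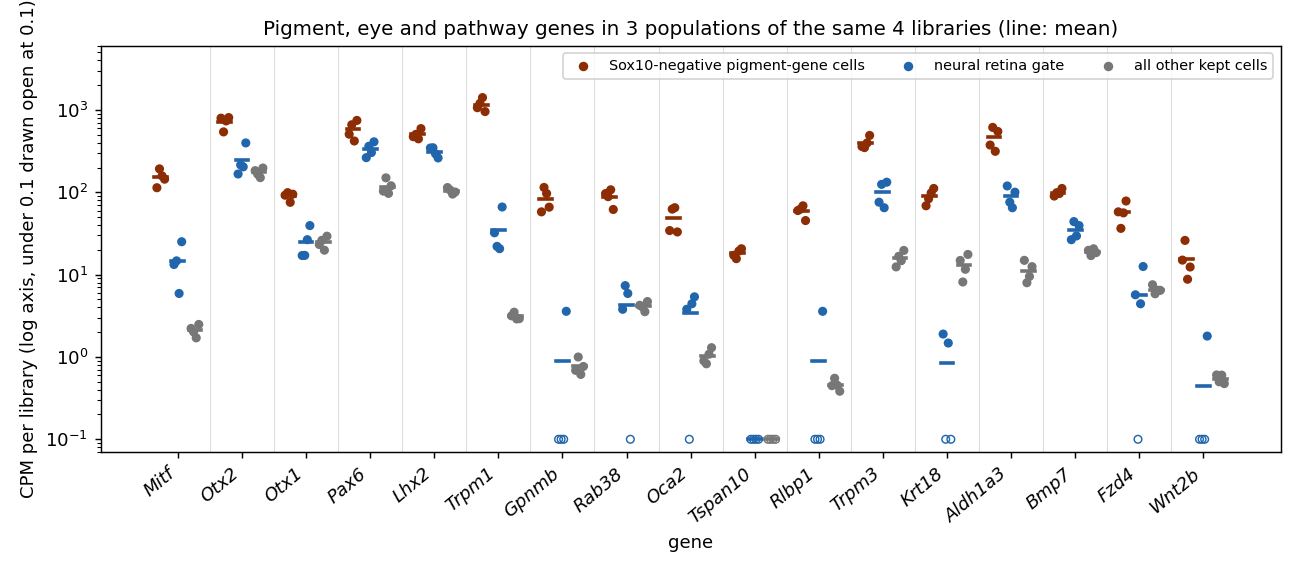
CPM per library (log axis, values under 0.1 drawn open at 0.1) of 17 genes in the Sox10-negative pigment-gene cells, the neural retina gate and all other kept cells; dots are the 4 libraries and lines the means. For Trpm1 the pigment-gene cells lie between 957 and 1414 CPM and the neural retina gate between 20.7 and 66.3 CPM.

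Trpm1 and Trpm3, related cation channel genes, each carry a microRNA in an intron, and the members differed from the other cells in both hosts. Trpm3 had 360.3 and 349 CPM in the Apcdd1+/- libraries and 397 and 491 CPM in the WT libraries, against 15.9 ± 3.1 CPM in the other cells, a log2 difference of 4.58 (SE 0.14). The hairpin of Mir211 lies at chr7:64205806-64205911 inside Trpm1 (chr7:64153835-64269775) and that of Mir204 at chr19:22750605-22750672 inside Trpm3 (chr19:22139046-22995410), all on the plus strand of GRCm38 and neither over a host exon in GENCODE vM21. The mature 5p sequences (RefSeq, GRCm38.p6) are printed with the seed, bases 2 to 8, in capitals, because they are near copies.
miR-211-5p: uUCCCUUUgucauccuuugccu
miR-204-5p: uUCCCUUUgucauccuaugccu
They share the seed and differ at 1 of 22 positions, position 17. The microRNAs themselves were not measured in these libraries.

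Markers of other tissues were low in the members. All 10 neuron genes were called lower, as were 12 of 14 tested regional genes of the forebrain, midbrain and hindbrain, 8 of 10 mesenchyme genes and 7 of 8 erythroid genes, against 9.29% of all genes. Of the neuron genes, Dcx and Snap25 had 1 UMI each in all members. Genes this low were tested only because the other cells had more. The summed neuron genes had 57.3 to 178 CPM in the members and 719 to 1391 CPM in the other cells, and the summed erythroid genes 46.9 to 74.3 CPM in the members, with 1 of 8 genes at 0, and 3061 to 6985 CPM in the other cells. Of the named genes, the embryonic globin Hbb-y was lower by a log2 difference of -6.51 (SE 0.14), the patterning genes Irx1 and Irx3 by -6.49 (SE 0.58) and -5.02 (SE 0.46), the collagen gene Col3a1 by -6.31 (SE 0.44), and the neurofilament genes Nefl and Ina by -5.09 (SE 0.35) and -4.80 (SE 0.34). Hba-x, Hba-a1, Hba-a2 and Hbb-bh1 differed by between -6.33 and -5.64, and Hba-a1 and Hba-a2 are near copies whose reads cannot be told apart with certainty. The midbrain and hindbrain genes En1 and En2 had 0 UMIs, at least 6.46-fold and 10.2-fold lower.

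Some marker genes of other tissues went the other way. Krt18, a keratin of simple epithelia, had 68.6 and 83.4 CPM in the Apcdd1+/- libraries and 98.5 and 111 CPM in the WT libraries, against 13.1 ± 4.1 CPM in the other cells (log2 difference 2.70, SE 0.25). Its usual partner Krt8 was lower, at 5.01 ± 4.33 CPM in the members against 18.1 ± 4.1 CPM. The other epithelial markers Epcam, Cldn6, Cldn7 and Cdh1 were called lower. Cldn6, Cldn7 and Cdh1 had 0 UMIs in all members and were tested only because the other cells had more. Postn of the mesenchyme list, Folr1 of the choroid plexus list, Cryab of the lens list and Rxrg of the crest list were called higher, by 2.87, 2.83, 2.53 and 4.33 on the log2 scale. The crest list otherwise had 8 of 17 tested genes lower, against 9.29% of all genes, and 8 that did not pass. Of those called lower, Tfap2b, Itga4, Ngfr, Tfap2c, Ednrb and Pax3 had 1 to 5 UMIs in all members. They were tested only because the other cells had more, so a call of lower was favoured by the filter.

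The nearest population was the neural retina gate, 146 non-members without Sox10 that had at least 1 of the eye field genes Rax, Six6 and Six3 together with a further marker gene. It held 48 and 29 cells in the Apcdd1+/- libraries and 42 and 27 in the WT libraries, with a median of 12255 UMIs per cell against 11777 in the Sox10-negative members. These were 0.505% and 0.523% of kept cells in the Apcdd1+/- libraries, against 0.671% and 0.913% in the WT libraries, the same order as for the members. The members and the gate came from the same libraries. Genes used by either choice were left out of the results, and the comparison asks how the 2 layers of the optic cup differ. Of the rule genes, Pmel was the only one found in the gate, in 5 of 146 cells.

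Against the gate, 433 of 6557 genes were called higher (6.6%) and 388 lower (5.92%), with a median log2 difference of -0.01 over all genes tested. A gene passed the low-count filter if it was high enough in either population, so genes near 0 in one of them were tested only where they were high in the other. DESeq2 called 218 and 125, and without WT replicate 1 the counts were 231 and 158.

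**Figure D3:**
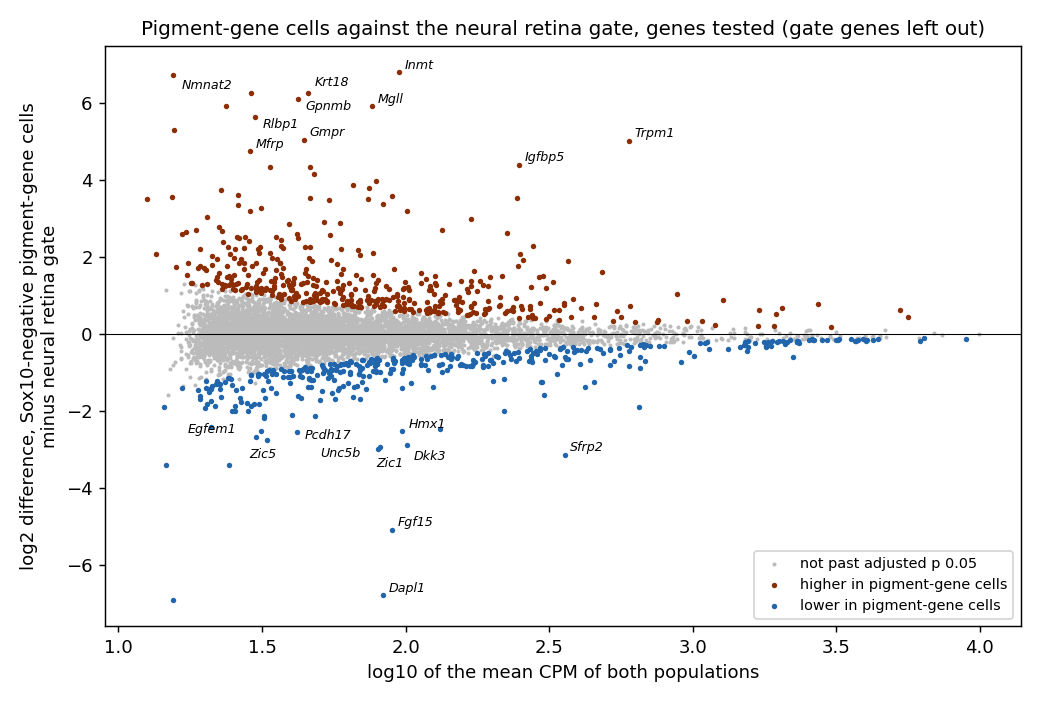
Log2 difference of the Sox10-negative pigment-gene cells minus the neural retina gate against the log10 of the mean CPM of both, for the genes tested without the gate genes; coloured dots passed an edgeR adjusted p of 0.05 and the labels are the named genes. Inmt lies highest among the named genes at 6.79 and Dapl1 lowest at -6.80.

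Several pigment genes were higher in the members than in the gate, while Slc24a5 did not pass (log2 difference -0.03). Trpm1 had 32.3 and 22.0 CPM in the gate of the Apcdd1+/- libraries and 20.7 and 66.3 CPM in that of the WT libraries, and the members, at 957 to 1414 CPM, did not overlap with it (log2 difference 5.01, SE 0.17, edgeR adjusted p = 2.15e-26). Oca2 was higher by 3.61 (SE 0.48), Rab38 by 4.33 (SE 0.39) and the granule protein gene Cd63 by 1.77 (SE 0.15). Of the 30 melanosome genes 16 were too low to test here, and Gpnmb, Rab27a, Oca2 and Rab38, at 0.369 to 4.26 CPM in the gate, could be tested only because the members had more. Tspan10 and Slc45a2 had no UMI in the gate and were at least 13.3-fold and 6.40-fold higher in the members.

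Mitf was higher by 3.37 (SE 0.28, edgeR adjusted p = 7.6e-13), at 152 ± 32.8 CPM in the members and 14.7 ± 7.9 CPM in the gate. Its partner in the epithelium, Otx2, had 796 and 542 CPM in the Apcdd1+/- libraries and 737 and 809 CPM in the WT libraries, against 246 ± 103 CPM in the gate (log2 difference 1.60, SE 0.13). Otx1 and Nr2f2, a nuclear receptor gene, were higher by 1.80 and 1.5. Pax6 and Lhx2, which both layers use, were also higher in the members, by 0.76 and 0.67. Sox9 and Nr2f1 did not pass, at 41.9 ± 19.5 and 222 ± 37.8 CPM in the members and 23.2 ± 8.4 and 230.1 ± 31.1 CPM in the gate.

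The 10 named genes that were higher than in the gate included, besides Trpm1, Gpnmb, Rlbp1 and Mfrp, the methyltransferase gene Inmt (6.79, SE 0.40), the NAD synthesis gene Nmnat2 (6.26, SE 0.62), Krt18 (6.24, SE 0.49), the lipase gene Mgll (5.91, SE 0.37), the GMP reductase gene Gmpr (5.04, SE 0.42) and the growth factor binding protein gene Igfbp5 (4.39, SE 0.22). Inmt had 236 and 224 CPM in the Apcdd1+/- libraries and 204 and 90.8 CPM in the WT libraries, against 0 to 3.59 CPM in the gate. Krt18 had 0 to 1.9 CPM in the gate. The 10 were chosen for the largest differences and 1 direction in all libraries, so the lack of overlap in each of them describes the choice. Inmt, Nmnat2, Krt18, Gpnmb, Mgll, Rlbp1, Gmpr and Mfrp had a mean of 0.369 to 2.27 CPM in the gate. They could be tested only because the members had more.

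The other direction was led by Dapl1, with 2 UMIs in 1 member cell and 166 ± 55.3 CPM in the gate (log2 difference -6.80, SE 0.42). The axon guidance receptor gene Unc5b, the transcription factor genes Zic1, Zic5 and Hmx1, the Wnt modulator genes Sfrp2 and Dkk3, the protocadherin gene Pcdh17, Egfem1 and Fgf15 were the other 9, at between -5.10 and -2.53. Sox2, which keeps retinal progenitors neural, had 57.9 and 62.5 CPM in the Apcdd1+/- libraries and 61.5 and 198.0 CPM in the WT libraries, against 347 ± 39.0 CPM in the gate (log2 difference -2.0, SE 0.20, edgeR adjusted p = 8.94e-11). WT 2 stood above the other 3 libraries and still below every library of the gate.

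FGF signals from the surface ectoderm promote the neural retina in the vesicle, and a list of 12 FGF ligand, target and feedback genes was examined. Against the gate 8 of the 12 were too low to test. The ligand gene Fgf15 had 0 and 10.4 CPM in the Apcdd1+/- libraries and 7.03 and 0 CPM in the WT libraries, against 82.7 to 247 CPM in the gate. Fgf9, another ligand gene of the neural retina, had 0 UMIs in the 110 cells, against 68 in the gate, at least 15.3-fold lower. The target gene Etv5 and the feedback inhibitor gene Spred1 were lower, at -1.9 (SE 0.58, edgeR adjusted p = 0.0227) and -0.97 (SE 0.31, edgeR adjusted p = 0.0298). Fgf15, Fgf9 and Etv5 had 6, 0 and 8 UMIs in all members and could be tested only because the gate had more. Against all other cells 10 of 12 were called lower, against 9.29% of all genes, and 0 higher, with a median log2 difference of -2.51. Dusp6, Spry1 and Spry2 were among them. Spry4, Fgf8, Spry2, Etv4 and Spry1 had 0 to 4 UMIs in all members, and Etv1, Fgf15, Etv5 and Dusp6 had 6 to 11. These too were tested only because the other cells had more, so a call of lower was favoured by the filter.

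Wnt signalling through beta-catenin is needed to keep the epithelium pigmented in mice, and its genes moved in both directions. Against the gate, 5 of 10 tested genes were called higher and 3 lower, against 6.6% and 5.92% of all genes, and 18 were not tested. The receptor gene Fzd4 had 57.9 and 36.5 CPM in the Apcdd1+/- libraries and 56.3 and 78.4 CPM in the WT libraries, against 5.67 ± 5.20 CPM in the gate (log2 difference 3.27, SE 0.41). Fzd5, another receptor gene, went the other way (-2.42, SE 0.48), at 6.12 ± 5.46 CPM in the members and 35.9 ± 9.0 CPM in the gate. Of the secreted inhibitors, Sfrp1 was higher (1.21, SE 0.14), at 347 to 421 CPM against 134 to 199 CPM, while Sfrp2 was lower (-3.15, SE 0.15), at 52.8 to 119.8 CPM against 586 to 663 CPM. Wls, needed to secrete any Wnt, was higher by 2.03 (SE 0.30) and the ligand gene Wnt7b by 1.37 (SE 0.34), with WT 2 at 123.8 CPM above the other 3 libraries, at 21.1 to 46.9 CPM. Wnt2b, a ligand of the pigment epithelium and ciliary margin, had 15.0 and 26.1 CPM in the Apcdd1+/- libraries and 8.79 and 12.4 CPM in the WT libraries, against 0 or 1.79 CPM in the gate, and was tested only against the other cells (4.57, SE 0.63).

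Target genes of the pathway were mostly measured against the other cells. Axin2, a general target gene, had 8.59 ± 2.91 CPM in the members, 4.14 ± 2.34 CPM in the gate and 15.3 ± 1.6 CPM in the other cells. It did not pass against the other cells, and it was too low to test against the gate. Lef1, Nkd1 and Sp5, with 23, 11 and 0 UMIs in all members, were called lower than in the other cells. Sp5 could be tested only because the other cells had more, so its call was favoured by the filter. Apcdd1 had 12.9 and 26.1 CPM in the Apcdd1+/- libraries and 10.6 and 16.5 CPM in the WT libraries, from 13 of 110 cells, against 63.0 ± 11.6 CPM in the other cells (log2 difference -2.25, SE 0.29). In the gate it had 9.57 ± 3.80 CPM and was not tested.

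**Figure D4:**
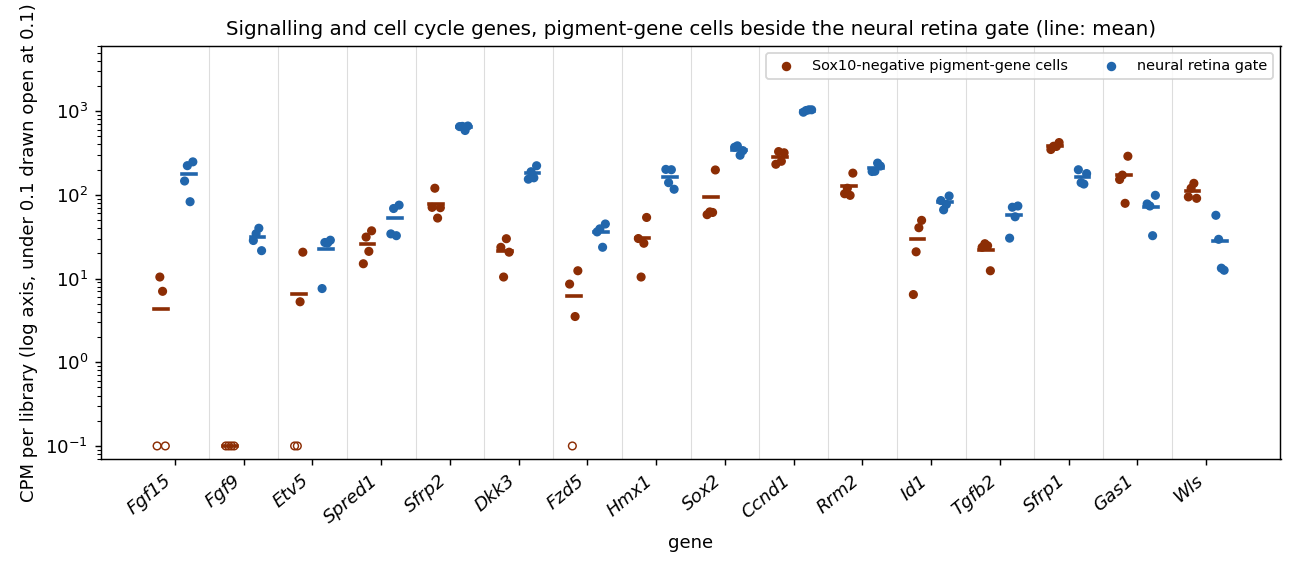
CPM per library (log axis, values under 0.1 drawn open at 0.1) of signalling and cell cycle genes in the Sox10-negative pigment-gene cells and the neural retina gate; dots are libraries and lines means. Ccnd1 lies between 232 and 328 CPM in the pigment-gene cells and between 969 and 1036 CPM in the gate.

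Of the BMP and TGF-beta genes, the ligand gene Bmp7 was higher than in the gate, at 99.3 ± 8.9 CPM against 34.9 ± 8.2 CPM (log2 difference 1.53, SE 0.25), as was the activin inhibitor gene Fst by 0.77 (SE 0.24). The BMP target genes Id1 and Id3 and the ligand gene Tgfb2 were lower, by -1.55, -0.26 and -1.27. Bmp4, a ligand of the dorsal eye, did not pass, at 38.1 ± 9.4 CPM in the members and 38.5 ± 18.9 CPM in the gate.

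Retinoic acid is made in the eye by 3 enzymes with domains of their own. Aldh1a3, the enzyme gene of the pigment epithelium and ventral eye, had 375 and 615 CPM in the Apcdd1+/- libraries and 315 and 549 CPM in the WT libraries, against 65.0 to 119.5 CPM in the gate (log2 difference 2.29, SE 0.16, edgeR adjusted p = 4.1e-15). Aldh1a1, of the dorsal retina, had 83.6 and 67.7 CPM in the Apcdd1+/- libraries and 285 and 586 CPM in the WT libraries, against 500.1 to 641 CPM in the gate (log2 difference -1.38, SE 0.22). In WT 2 the members were above the gate, and in the other 3 libraries below it. Aldh1a2 had 0 UMIs in members and gate. Rdh10 and Stra6, which supply retinaldehyde and retinol, were higher by 1.23 and 2.50. The binding protein gene Crabp1 was lower than in the other cells, at 47.2 and 83.4 CPM in the Apcdd1+/- libraries and 509.9 and 57.8 CPM in the WT libraries, against 1585 ± 331 CPM. In WT 1, 262 of its 290 UMIs came from 1 cell.

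Most cell cycle genes did not pass the test against the gate. Of 19 tested G2/M genes 18 did not pass, and Top2a was lower by -0.36 (edgeR adjusted p = 0.0335). Their summed level was 3811 and 1589 CPM in the Apcdd1+/- libraries and 2855 and 3705 CPM in the WT libraries, against 2783 to 3863 CPM in the gate, and Apcdd1+/- 2 was the lowest of all. Of the S phase genes, Rrm2 and Ccne2 were lower (-0.83 and -1.30) and 18 of 20 did not pass. Over all genes tested against the gate 5.92% were called lower, so these few calls are not read as a change of either list. Cyclin D1, by contrast, had 232 and 328 CPM in the Apcdd1+/- libraries and 251 and 318 CPM in the WT libraries, against 1015 ± 31.6 CPM in the gate (Ccnd1, log2 difference -1.9, SE 0.10, edgeR adjusted p = 1.76e-19) and 783 ± 15.5 CPM in the other cells. Gas1, a growth arrest gene known in mice to act in the pigment epithelium, was higher by 1.25 (SE 0.19). Of the 7 cyclin and cell cycle exit genes tested, Ccnd1 and Ccnd2 were called lower, Gas1 higher, and 4 did not pass. Over all genes, 5.92% were called lower and 6.6% higher.

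Of 11 junction, polarity and matrix genes tested, 3 were higher than in the gate and 2 lower, against 6.6% and 5.92% of all genes. The laminin chain gene Lamb1 was higher by 2.11 (SE 0.24), the integrin gene Itga6 by 1.02 (SE 0.21) and the collagen gene Col9a1 by 0.49 (SE 0.14), while another integrin gene, Itgb1, was lower by -0.60 (SE 0.21). Cdh1, the cadherin of other epithelia, had 0 UMIs in the members, and Cdh2, the neural cadherin, had 98.9 ± 28.7 CPM in the members and 104 ± 12.0 CPM in the gate and did not pass. The patterning genes of the ventral eye and stalk did not pass either: Vax2 had 75.4 ± 30.4 CPM in the members and 58.6 ± 12.7 CPM in the gate, and Pax2 77.4 ± 38.7 CPM in the members and 77.8 ± 36.2 CPM in the gate.

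Between the labelled genotypes, the Sox10-negative members were compared as 1 sum per library. Of 5661 genes, edgeR called 1 (0.0177%), and 131 had an unadjusted p below 0.05. In simulated data this fit called 24% of 2-fold and 88.7% of 4-fold changes, so 2-fold changes would mostly be missed. DESeq2 also called 1. Of the 133 list genes tested, 1 was called and 6 had an unadjusted p below 0.05. Trpm1 differed by -0.07 (SE 0.25), Mitf by -0.05 (SE 0.34), Otx2 by -0.17 (SE 0.25) and Aldh1a3 by 0.21 (SE 0.30) on the log2 scale, all with an edgeR adjusted p = 0.9999. The groups overlapped for Trpm1, Mitf, Otx2 and Aldh1a3. They did not for Krt18, at 68.6 and 83.4 CPM in the Apcdd1+/- libraries against 98.5 and 111 CPM in the WT libraries. Nor did they for Trpm3, at 360.3 and 349 CPM in the Apcdd1+/- libraries against 397 and 491 CPM in the WT libraries. Neither passed the test (edgeR adjusted p = 0.9999). With 2 libraries in each group such an order arises easily, and the share of all tested genes that show it was not counted. It is therefore not read as a result. Pmel had 706 and 907 CPM in the Apcdd1+/- libraries, against 999 and 656 CPM in the WT libraries, and Dct 281 and 412 CPM, against 403 and 367 CPM.

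The 1 gene was Aldh1a1, the retinoic acid enzyme gene of the dorsal retina, on chr19:20492715-20643465 (plus strand, mm10, GENCODE vM21). It had 83.6 and 67.7 CPM in the Apcdd1+/- libraries, against 285 and 586 CPM in the WT libraries, a log2 difference of -2.43 (SE 0.37, edgeR adjusted p = 0.00663). Its UMIs came from few cells: 7 of 39 and 4 of 18 cells had any in the Apcdd1+/- libraries, against 5 of 40 and 3 of 13 in the WT libraries. In WT 1, 155 of 162 UMIs lay in 2 cells and in WT 2, 133 of 142, against 28 of 39 and 10 of 13 in the Apcdd1+/- libraries. Without the 2 cells with the most Aldh1a1 UMIs in each library, a check added after the values were seen, it had 24.5 and 19.2 CPM in the Apcdd1+/- libraries, against 13.3 and 43.2 CPM in the WT libraries. These cells were left out by the outcome itself, so the values describe where the UMIs lay and test nothing. Without Apcdd1+/- replicate 2 the log2 difference was -2.31 and missed the threshold (edgeR adjusted p = 0.142). In the neural retina gate it had 599 and 600.1 CPM in the Apcdd1+/- libraries, against 641 and 500.1 CPM in the WT libraries. Its neighbour and close relative Aldh1a7, with which reads could be shared, had 47.2 and 88.6 CPM, against 33.4 and 243 CPM in the WT libraries, and did not pass.

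**Figure D5:**
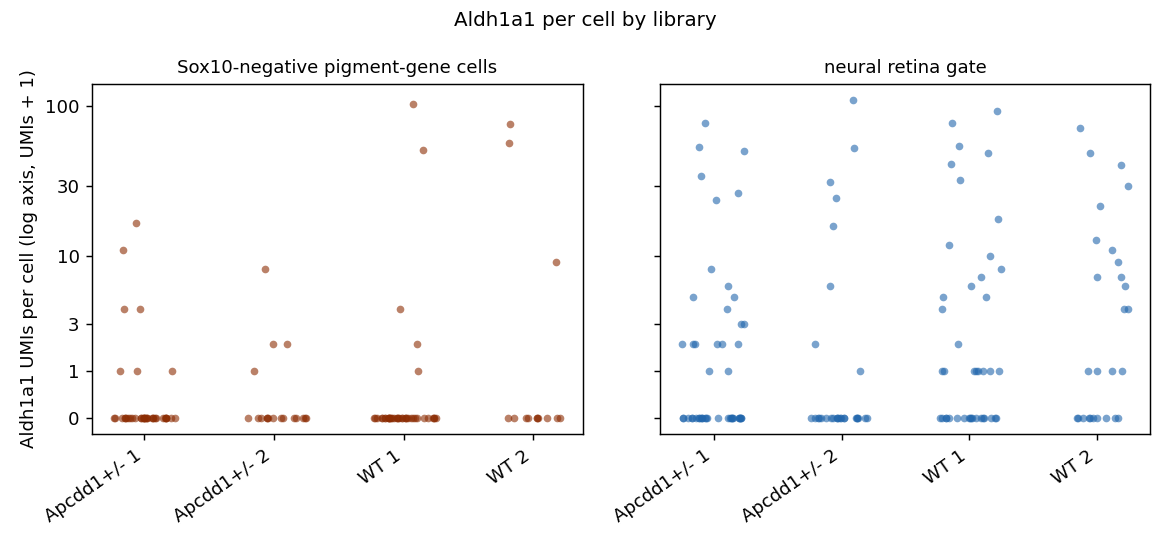
Aldh1a1 UMIs per cell (log axis of UMIs + 1) in each library, for the Sox10-negative pigment-gene cells on the left and the neural retina gate on the right. In WT 1 and WT 2 the pigment-gene cells with the most UMIs have 103 and 76, and in Apcdd1+/- 1 and Apcdd1+/- 2 they have 17 and 8.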

How the data were processed

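Heads of E10.5 embryos were dissociated, sorted to remove dead cells and made into DNBelab C libraries, per the labels' protocols. The authors deposited unnormalized UMI counts for each cell as sparse matrices from PISA 0.12, per the file headers, and the submitters' processing notes name the build mm10 and Scanpy 1.9.1. No aligner or annotation is named there. Of 20719 genes, 18081 are listed for all 4 libraries, and an unlisted gene was read as 0. A library is the sample, with its group and replicate number from the labels.

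Counts were summed per library and population and fitted with edgeR 4.0.16 (quasi-likelihood, TMM, filterByExpr, two-sided, Benjamini-Hochberg over all genes tested, threshold 0.05), with the library as a block between populations and no block between genotypes. SEs are the log2 difference divided by the root of the F statistic. The fits were tested on simulated data with known changes in genes above 50 CPM. Changes of 2-fold were called in 97% of cases against other cells, 91% against the gate and 24% between genotypes. For 4-fold changes the shares were 100%, 100% and 88.7%. Alternatives were DESeq2 1.42.0, median-of-ratios scaling, no filter, each library left out, at least 3 rule genes, cells thinned to 3000 UMIs, and no cells above the 95th percentile of UMIs. Named genes were the 10 highest and 10 lowest log2 differences among genes called with at least 50 CPM in the higher population and 1 direction in all libraries, and members of 27 gene lists. The further marker gene of the neural retina gate, and a few other genes, are not reported here. The members and lists were chosen with earlier results of these data known. R 4.3.3 and Python 3.11.15 were used.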

Additional observations from a re-analysis of the deposited data

How the results depend on the processing

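For single genes, 525 of 527 values under the alternatives kept their direction and their side of the threshold. Most of these genes were the named ones, picked from these data for large differences and 1 direction in every library. Their stability was therefore largely fixed by the choice and says little about other genes. The other 2 values were Aldh1a1 between genotypes, without Apcdd1+/- replicate 2 (-2.31) and with at least 3 rule genes (-1.85, edgeR adjusted p = 0.999). Over its alternatives the log2 difference of Aldh1a1 ran between -2.85 and -1.85. Counts moved more. Against other cells, where edgeR called 910 higher and 1324 lower, the higher count was 401 with at least 3 rule genes and 292 with cells thinned to 3000 UMIs, and the lower count was 699 by DESeq2 and 512 thinned. Leaving out a library gave 551 to 793 higher and 861 to 1158 lower. With at least 3 rule genes 30.4% of calls were higher, against 40.7%. Against the gate, where 433 were higher and 388 lower, the counts were 218 and 125 by DESeq2 (63.6% higher, against 52.7%), 262 higher with at least 3 rule genes, 111 and 83 thinned, 216 lower without the library block, and 231 to 394 and 158 to 387 without a library. Between genotypes the count was 3 without the filter, 0 with at least 3 rule genes, 2 with a replicate block, 0 without the 2 highest Aldh1a1 cells of each library, which were chosen by that outcome, and 0 to 3 without a library. Whether the replicate numbers pair the libraries could not be decided. With 2 libraries in each group the deviations from the group mean mirror each other, so their correlation, 0.044, is a single value. In this balanced design a replicate block leaves the mean difference in share at -0.175 points by arithmetic. Without a library that difference lay between -0.257 and -0.0918, and for Sox10-negative members, where it was -0.172, between -0.272 and -0.0722. In cells chosen by at least 3 of the other 4 rule genes, 3 for Pmel and Dct and 16 for Tyr, Pmel had 2050 CPM, Dct 830.5 and Tyr 74.2. The Sox10-positive comparisons were not run, since no library had 5 such cells. A count of 3 UMIs corresponds to 2.04 CPM over all 110 cells but to between 5.27 and 15.6 CPM in a single library, which limits the values per library.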

Other observations

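After the values were seen, the 110 Sox10-negative members were divided by Vax2 and Pax2, genes of the ventral eye and optic stalk: 58 cells had a UMI of either and 52 had neither, with a median depth of 13412 and 10760 UMIs. Aldh1a1, the dorsal enzyme gene, had 25.8 CPM in the cells with Vax2 or Pax2 and 541 CPM in the rest, and its UMIs lay in 8 and 11 cells. By library it had 30.6 and 68.5 CPM in those cells of the Apcdd1+/- libraries and 15.0 and 0 CPM in those of the WT libraries, against 135 and 65.2 CPM and 668 and 1444 CPM in the cells with neither. Apcdd1+/- 2 showed no such difference, and 4 WT cells with 52 to 103 UMIs carried most of the pooled value. Tbx5, a dorsal transcription factor gene, had 1.17 and 21.1 CPM, and Tbx3 3.52 and 32.4 CPM. Both rest on few UMIs, mostly of the WT libraries. Over all 110 cells, Tbx5 had 2 and 0 UMIs in the Apcdd1+/- libraries and 5 and 7 in the WT libraries. Tbx3 had 0 and 1 in the Apcdd1+/- libraries and 17 and 5 in the WT libraries. Foxd1, a ventral and temporal gene, had 163 and 58.3 CPM, and Aldh1a3 460 and 345 CPM. Pmel had 631 CPM in the cells with Vax2 or Pax2 and 1121 CPM in the rest, Dct 299 and 442 CPM, and Trpm1 1144 and 1279 CPM. Trpm1 was higher in the cells with Vax2 or Pax2 in Apcdd1+/- 1 (1103 against 1031 CPM) and WT 2 (1180 against 631 CPM) and lower in the other 2 libraries, and Dct was level in WT 2 (368 against 366 CPM).

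In 3 of 4 libraries Pmel was lower in the cells with Vax2 or Pax2: it had 494 and 768 CPM in those cells of the Apcdd1+/- libraries and 647 and 673 CPM in those of the WT libraries, against 909 and 1347 CPM and 1498 and 631 CPM in the cells with neither. WT 2 went the other way. The cells with a UMI of either gene numbered 18 of 39 and 12 of 18 in the Apcdd1+/- libraries, against 22 of 40 and 6 of 13 in the WT libraries. The cells with Vax2 or Pax2 were the deeper ones, and the part of depth in these values was not tested.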
